A study of Rattus norvegicus with 32 samples.

Results

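The natriuretic peptide system of the rat left ventricle was described here through 7 genes. They were the hormone genes Nppa, Nppb and Nppc, the receptor genes Npr1, Npr2 and Npr3, and Corin, which codes for a hormone-processing protease. Every non-control probe that either annotation of the array assigned to one of these symbols was taken. The 7 genes are among 27963 symbols on the array and had 11 of its 45598 probes, each of 60 bases and with 10 different sequences in all. Wistar rats of both sexes, aged 9 to 12 weeks, were studied in 3 groups. Sham rats (5 males and 5 females) were compared with rats that underwent caecal ligation and puncture (CLP), a surgical model of peritonitis and sepsis (5 males and 5 females). A further group received CLP plus landiolol, a short-acting beta-1-selective adrenergic blocker infused at 0.1 mg/kg/min (6 males and 6 females). Rats without landiolol received saline, and buprenorphine was given against pain. Hearts were collected at 20 h, and each array held the RNA of 1 heart. The study's methods placed imaging in the living animal and perfusion of the isolated heart before freezing, so every ventricle had been through both. All values are log2 intensities, quantile-normalised within each sex, and an error is an SD over arrays unless it is named as an SE. Each sex lay on 2 slides of its own, so sex and slide cannot be told apart for a level, and levels were not compared between males and females.

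Natriuretic peptides are hormones that the heart releases when its walls are stretched, and they promote salt excretion and relax vessels. Nppa codes for atrial natriuretic peptide, Nppb for brain natriuretic peptide and Nppc for C-type natriuretic peptide, which is mainly an endothelial and local signal. Corin, a serine protease on the surface of cardiomyocytes, cuts the precursor of atrial natriuretic peptide. The receptors coded by Npr1 and Npr2 are membrane guanylyl cyclases that make cGMP, whereas the receptor coded by Npr3 lacks the cyclase and removes the hormones from the circulation. In the adult heart Nppa is mainly an atrial transcript, and ventricular Nppa and Nppb are classic markers of load on the myocardium.

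Nppa and Nppb are neighbours on chromosome 5. The 2 probes and the stretches upstream of both genes are shown because these hormone transcripts varied widely between hearts and were followed together. In the build used for the array (rn4) the Nppa probe lay at chr5:165074636-165074695 and the Nppb probe at chr5:165062879-165062938, both on the plus strand, with starts 11757 bases apart. The probes bind bases 118 to 177 of the Nppa transcript and bases 309 to 368 of the Nppb transcript. Their sequences, as given in the scanner files, were as follows.
Nppa probe: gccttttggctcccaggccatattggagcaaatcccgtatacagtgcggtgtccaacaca
Nppb probe: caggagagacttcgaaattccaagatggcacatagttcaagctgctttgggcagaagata

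In the RefSeq annotation of build GRCr8, 10869 bases separate the end of Nppb from the start of Nppa. The region upstream of Nppa lies at chr5:163711934-163712183 (250 bases, plus strand) and that of Nppb at chr5:163699758-163699954 (197 bases, plus strand), each ending at the base before the gene start. Both strands were searched for TGATAA and AGATAA, forms of the sequence that GATA transcription factors bind, and matches are in capitals below.
Nppa upstream: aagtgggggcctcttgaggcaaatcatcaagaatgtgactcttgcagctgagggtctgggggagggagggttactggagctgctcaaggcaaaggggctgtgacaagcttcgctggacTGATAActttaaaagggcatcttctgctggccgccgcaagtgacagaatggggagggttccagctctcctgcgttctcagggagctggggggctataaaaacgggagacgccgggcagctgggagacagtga
Nppb upstream: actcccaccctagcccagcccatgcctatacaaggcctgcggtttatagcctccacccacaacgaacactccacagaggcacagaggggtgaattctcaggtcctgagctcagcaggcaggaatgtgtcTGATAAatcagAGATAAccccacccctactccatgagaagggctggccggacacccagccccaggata

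TGATAA stood 132 bases before the start of Nppa. In Nppb, TGATAA stood 68 bases and AGATAA 57 bases before the start, on the gene's own strand and without overlapping each other. Among the first 250 bases of 33469 rat promoter entries, 7.97% held TGATAA, 10.3% held AGATAA and 1.4% held both. These windows were not cut at the gene start, unlike the 197 bases shown for Nppb, so they can hold transcribed bases. Of the 6 members with a promoter in the RefSeq table, Nppc, Npr1, Npr3 and Corin held neither string, and Npr2 was not in that table. A match describes the letters of the window and is not evidence of binding.

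All 7 heart muscle markers were measured well above background on all 32 arrays, and the atrial marker Bmp10 on 0 of 32. The mean log2 intensity of the 7 heart muscle markers (Tnnt2, Tnni3, Myh6, Actn2, Ryr2, Myl2 and Myl3) lay between 16.53 and 17.19 on every array. Between 34920 and 43155 spots per array were well above background, 0 spots were saturated, and arrays of a sex correlated with each other at r = 0.936 to 0.989 in males and 0.93 to 0.986 in females. Of 6 macrophage and monocyte markers, 4 rose in males and 3 in females after CLP in limma, beside 7.81% and 3.63% of all probes that passed. Their mean ranged from 9.37 to 9.8 in male sham and from 10.51 to 11.15 in male CLP hearts, and from 9.53 to 9.93 and from 10.6 to 11.21 in females. Their part in the values of the natriuretic genes was not tested. In such bulk tissue, fewer cells of a type and less RNA per cell cannot be told apart.

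CLP hearts of both sexes had a lower mean Npr3 signal and a higher mean Corin signal than sham hearts, but no member probe passed the false discovery rate (FDR) used for any comparison. At the brightest probe of both genes the CLP plus landiolol means lay in between. For Corin in females, however, that mean differed from sham by only 0.04 on the log2 scale. It moved below sham in 4 of 13 fits under other settings or at the other probe, and in 5 of 16 fits without 1 array. Ventricular Nppa and Nppb, the load markers, differed less between groups than between hearts of a group. Npr1 had somewhat higher means in septic hearts of both sexes, Npr2 hardly differed, and Nppc was not well above background. In limma, 0 of the 10 member probes that could be tested passed an FDR of 1% for CLP against sham in males, where 7.81% of all probes passed. In females 0 of 10 passed against 3.63% of all probes. For CLP plus landiolol against CLP, tested at an FDR of 5%, 0 of 10 passed in males (1.56% of all probes) and 0 of 10 in females (0.0945%). For CLP plus landiolol against sham, for which 1% was chosen here, 0 of 10 passed in males (4.15%) and 0 of 10 in females (5.25%). At an unadjusted p under 0.05, limma gave 5 of 10 member probes for CLP against sham in each sex, beside 28.8% of all probes in males and 23.1% in females. For CLP plus landiolol against CLP the counts were 2 of 10 in males (14.8% of all probes) and 3 of 10 in females (9.34%), and against sham 1 of 10 (24.2%) and 2 of 10 (26.7%). These counts hold several probes of the same gene. With 1 probe per gene, 2 of 6 members in males and 3 of 6 in females reached this p for CLP against sham. For CLP plus landiolol against CLP 0 of 6 and 2 of 6 did, and against sham 0 of 6 and 1 of 6. With 1 probe per gene, the 6 measured members had a median log2 fold change of 0.01 in males and 0.55 in females for CLP against sham, and of 0.13 and 0.11 for CLP plus landiolol against CLP. Over all probes these medians were 0.01, -0.01, -0.01 and 0.03.

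**Figure D1:**
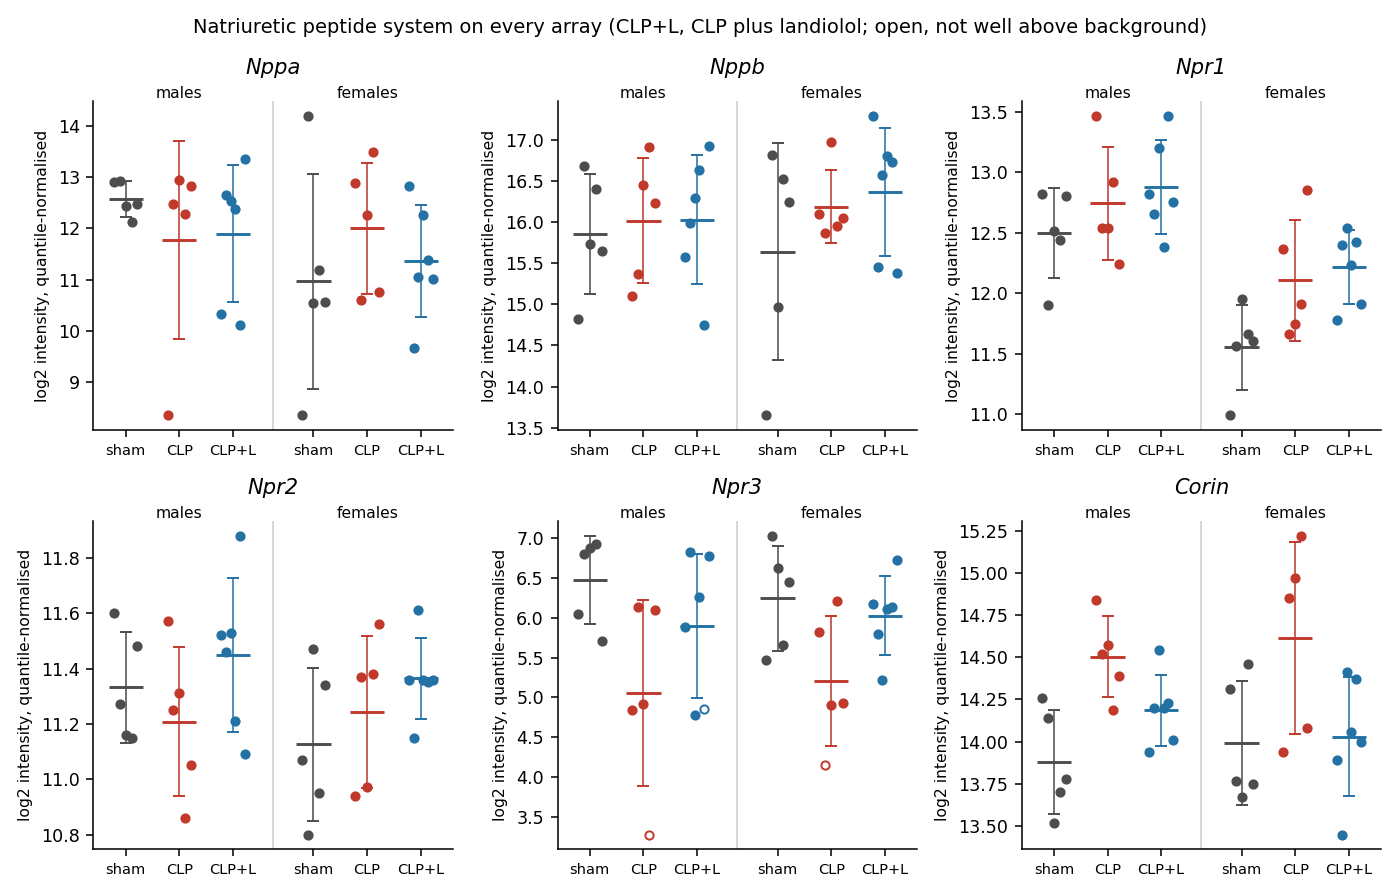
Log2 intensity of 6 members on each of the 32 arrays, by sex and group, with 1 point per array, the mean as a bar and the SD as whiskers. Nppa reaches down to 8.35 in single arrays of the male CLP and female sham groups, whereas Npr2 stays between 10.8 and 11.88 on all arrays.

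Nppa, the gene of atrial natriuretic peptide, was well above background on all 32 arrays. Male sham hearts gave log2 intensities of 12.91, 12.93, 12.44, 12.12 and 12.48. Male CLP hearts gave 8.35, 12.47, 12.94, 12.28 and 12.83, and the 6 male CLP plus landiolol hearts ran from 10.12 over a median of 12.46 to 13.36. The groups overlapped, and in males 1 CLP heart and 2 CLP plus landiolol hearts lay far below the other 13. In females the sham hearts gave 8.35, 14.19, 10.54, 11.19 and 10.57, a range of 5.84 on the log2 scale or 57.3-fold on the linear scale. Female CLP hearts gave 12.88, 10.6, 12.27, 13.5 and 10.75, and the landiolol-treated females ran from 9.67 over 11.22 to 12.82. Thus all 3 female groups lay within the span of the 5 female sham hearts.

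Group means of Nppa were 12.58 ± 0.34 in sham, 11.77 ± 1.94 in CLP and 11.9 ± 1.34 in CLP plus landiolol males (SD, n = 5, 5 and 6). In females they were 10.97 ± 2.1, 12 ± 1.29 and 11.37 ± 1.1. CLP differed from sham by -0.8 (log2 fold change, SE 0.79) in males, with a 95% confidence interval from -2.49 to 0.88 and an adjusted p of 0.57 in limma. Without the lowest CLP heart (replicate 1) this value was 0.05. In females the difference was 1.03 (SE 0.88, interval -0.83 to 2.89, adjusted p = 0.536), with 0.38 without sham replicate 1, 1.83 without sham replicate 2 and 0.66 without CLP replicate 4. Landiolol-treated hearts differed from CLP hearts by 0.12 in males (adjusted p = 0.951) and by -0.63 in females (adjusted p = 0.883). Neither direction held within both slides: for CLP against sham the male values were -1.67 and 0.21, and the female values 2.23 and -0.73.

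Nppb, the gene of brain natriuretic peptide, was measured on 2 spots per array and was well above background on all 32 arrays. Male sham hearts gave 14.82, 16.69, 15.74, 16.41 and 15.65, and male CLP hearts 15.1, 15.37, 16.46, 16.92 and 16.24. The 6 landiolol-treated males ran from 14.75 over 16.14 to 16.93, so all 3 male groups covered nearly the same span. Female sham hearts gave 13.65, 16.82, 14.97, 16.53 and 16.25, whereas female CLP hearts gave 16.1, 15.87, 16.98, 15.96 and 16.05. The landiolol-treated females ran from 15.38 over 16.65 to 17.29. The lowest female heart was again a sham heart, and the groups overlapped.

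Means of Nppb were 15.86 ± 0.73, 16.02 ± 0.76 and 16.03 ± 0.79 in sham, CLP and CLP plus landiolol males, and 15.64 ± 1.32, 16.19 ± 0.45 and 16.37 ± 0.78 in females (SD, n = 5, 5 and 6). CLP differed from sham by 0.15 in males (SE 0.45, interval -0.79 to 1.1, limma adjusted p = 0.879) and by 0.55 in females (SE 0.53, interval -0.57 to 1.67, adjusted p = 0.594). The female value was 0.05 without sham replicate 1, 0.85 without sham replicate 2 and 0.35 without CLP replicate 3, and within slides it was 0.96 and -0.3. CLP plus landiolol differed from CLP by 0.01 in males (adjusted p = 0.992) and 0.18 in females (adjusted p = 0.958). The upper ends of the intervals for CLP against sham correspond to a 2.14-fold level in males and a 3.18-fold level in females, so changes up to that size could not be told from none.

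The spread between hearts of a group was the most marked feature of both hormone genes. The within-group SD of Nppa was 1.37 in males and 1.53 in females, higher than that of 99.6% of the probes tested in each sex. For Nppb it was 0.76 and 0.91, higher than that of 94% and 95.9% of probes, whereas the median over all probes was 0.33 and 0.37. Npr3 also varied widely (0.91 and 0.66, on a weak signal). Npr2 (0.25 and 0.23) was tighter than most probes. Array signal moved with Nppa in males, by a split made after the values were seen. On the 6 male arrays with a median processed intensity of 49.2 to 81.6, Nppa ran from 8.35 over a median of 11.4 to 12.91. These held all 3 of the male hearts with low Nppa. On the other 10 arrays, at 101.3 to 158.4, Nppa ran from 12.12 over 12.57 to 13.36. The part of array signal in the spread was not tested.

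High and low hearts were partly the same for Nppa and Nppb. In 4 of the 6 groups the heart with the lowest Nppa also had the lowest Nppb, and in 4 of 6 the heart with the highest Nppa had the highest Nppb. In females, with every value centred on its group mean, the 2 transcripts correlated over 16 hearts at Pearson r = 0.73 (permutation p = 0.00569, adjusted 0.0727) and Spearman rho = 0.71 (permutation p = 0.00413, adjusted 0.0702). These p-values were two-sided, from 100000 permutations within groups, and were adjusted over 34 relations computed in the same family. Within each of the female slides r was 0.73, and without the 2 hearts farthest from the median of Nppa it was 0.51. Male hearts fell into 13 with Nppa between 12.12 and 13.36 and 3 between 8.35 and 10.33, so no Pearson r is given over all 16. By ranks, rho over all 16 was 0.53 (permutation p = 0.0391, adjusted 0.166). Within the 13, a subset chosen by its Nppa values after they were seen, r was 0 and rho -0.03 (permutation p = 0.995 and 0.925). Choosing on Nppa narrows its span, which by itself pulls r towards 0, so these values cannot show that a relation is absent. Neither sex gave a relation of Nppa and Nppb that passed the adjustment.

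**Figure D2:**
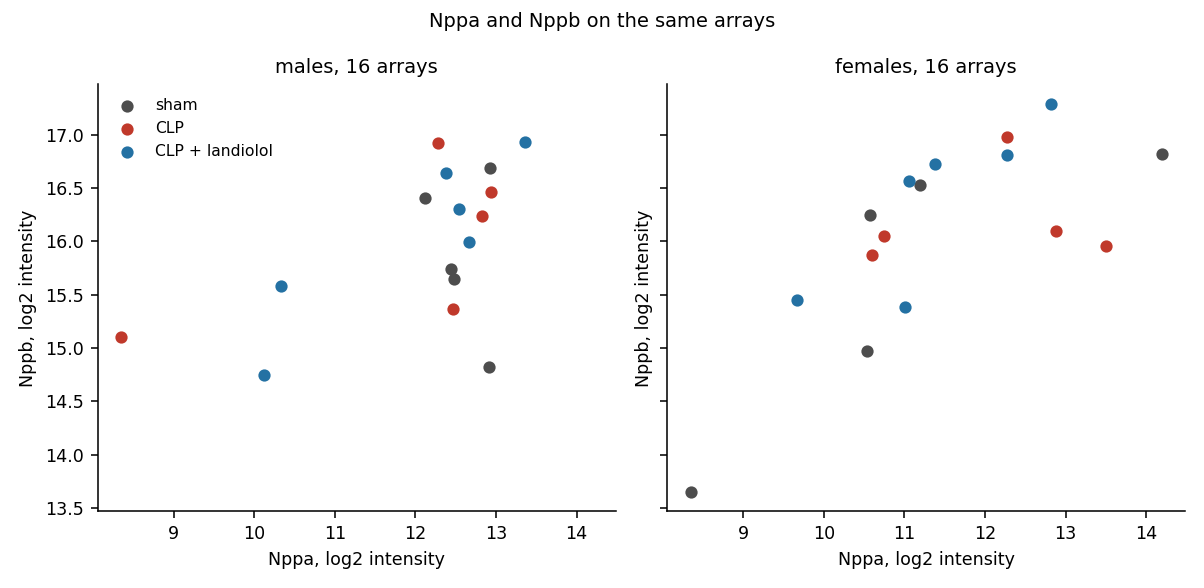
Nppb against Nppa, both as log2 intensity, with 1 point per heart and colours for the groups, in 16 males and 16 females. Female points climb from the sham heart at 8.35 and 13.65 towards the upper right, whereas 13 of the male points share a narrow span of Nppa and 3 lie apart at its low end.

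Markers of the atria, where Nppa is mainly made, were followed beside it. Of 7 atrial markers 6 could be measured, and their mean ranged from 9.82 to 10.58 in male sham, from 9.2 to 9.92 in male CLP and from 9.17 to 10.14 in male landiolol-treated hearts. In females the ranges were 9.64 to 10.29, 9.38 to 10.11 and 9.6 to 10.26. Kcnj3, an atrial potassium channel gene, fell by 1.03 (SE 0.22, limma adjusted p = 0.00439) after CLP in males and was the only one of the 6 to pass, beside 7.81% of all probes. Its other probe did not pass. Dkk3 of the same list gave 0.86 in males (adjusted p = 0.0293) and 0.63 in females (adjusted p = 0.227), although its 3 other probes had the opposite sign. The median log2 fold change of the 6 was -0.76 in males and -0.36 in females, with 1 and 2 of them positive. In females Nppa and the mean of the atrial markers correlated at r = 0.36 and rho = 0.39 over 16 hearts (permutation p = 0.225 and 0.173, adjusted 0.51 and 0.391), and r was 0.37 without the 2 farthest hearts. Within the female slides r was 0.17 and 0.67. In males, again by ranks only, rho was 0.49 (permutation p = 0.0621, adjusted 0.192). With the atrial light chain gene Myl7 alone, Nppa gave rho = 0.55 in males (permutation p = 0.0134, adjusted 0.0914) and r = 0.47 and rho = 0.38 in females (permutation p = 0.0971 and 0.184, adjusted 0.254 and 0.391).

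Nppc, the gene of C-type natriuretic peptide, was represented by a probe at chr9:85434422-85434481 (rn4, minus strand). It was well above background on 1 of 32 arrays, a landiolol-treated female heart at 5.41. Group means lay between 2.21 and 2.83, a level at which the values have no order, so the gene was not tested and no fold change is given.

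Npr1 codes for the cyclase receptor of atrial and brain natriuretic peptides. Both of its probes, at chr2:182724916-182724975 and chr2:182734680-182734739 (rn4, minus strand), were well above background on all 32 arrays. The first, which had the higher mean, gave 10.99, 11.56, 11.95, 11.66 and 11.6 in female sham hearts and 12.36, 11.66, 11.74, 11.91 and 12.85 in female CLP hearts. Female landiolol-treated hearts ran from 11.78 over 12.32 to 12.54. Of these, 3 of the 5 CLP hearts and 2 of the 6 landiolol-treated hearts lay below the highest sham heart, so the groups overlapped.

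The female means of Npr1 were 11.55 ± 0.35 in sham, 12.11 ± 0.5 in CLP and 12.21 ± 0.31 in CLP plus landiolol (SD, n = 5, 5 and 6). CLP differed from sham by 0.55 (SE 0.24, interval 0.05 to 1.06, limma adjusted p = 0.17) and CLP plus landiolol from sham by 0.66 (SE 0.23, interval 0.18 to 1.14, adjusted p = 0.0693). The other probe gave 0.74 (adjusted p = 0.115) and 1.06 (SE 0.27, interval 0.49 to 1.62, adjusted p = 0.0167) for these comparisons. All 5 female sham arrays lay in row 1 of their slides and all 6 landiolol-treated arrays in row 2, and only the 5 CLP arrays lay in both rows (3 in row 1 and 2 in row 2). With row as a term, estimated through those CLP arrays, Npr1 was 0.2 (adjusted p = 0.919). In males the means were 12.49 ± 0.37, 12.74 ± 0.47 and 12.88 ± 0.39, and CLP differed from sham by 0.25 (adjusted p = 0.573) and CLP plus landiolol from CLP by 0.14 (adjusted p = 0.805). Male CLP plus landiolol hearts differed from sham by 0.39 (SE 0.24, limma adjusted p = 0.342). With the other probe, males gave 0.35 (adjusted p = 0.508) for CLP against sham. For CLP plus landiolol against sham it gave 0.76 (interval 0.14 to 1.38, adjusted p = 0.117). The endothelial marker mean, for a cell type that carries this receptor, ranged from 11.61 to 12.57 in female sham, 11.73 to 12.58 in female CLP and 12.23 to 12.51 in landiolol-treated female hearts. For CLP plus landiolol against sham, 5 of the 6 endothelial markers were higher in females and 1 passed in limma, beside 5.25% of all probes. In males 5 of 6 were higher and 0 passed, beside 4.15%. The median log2 fold changes were 0.4 and 0.16, and for CLP against sham 0.05 in females and -0.16 in males. The part of these markers in the Npr1 values was not tested. Npr1 also moved with array signal. In each female group its highest value was on the array of lowest median processed intensity. These were 11.95 at 68.91 in sham, 12.85 at 69.6 in CLP and 12.54 at 72.28 in CLP plus landiolol. The 6 male arrays of lowest intensity (49.2 to 81.6) all read 12.8 or above, and the others lay between 11.9 and 12.92. The part of array signal was not tested.

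Npr2 codes for the cyclase receptor of C-type natriuretic peptide, and its probe lay at chr5:60127743-60127802 (rn4, plus strand). All 32 values fell between 10.8 and 11.88. Means were 11.33 ± 0.2, 11.21 ± 0.27 and 11.45 ± 0.28 in sham, CLP and CLP plus landiolol males, and 11.13 ± 0.28, 11.24 ± 0.28 and 11.36 ± 0.14 in females. CLP differed from sham by -0.13 in males (limma adjusted p = 0.686) and 0.12 in females (adjusted p = 0.731). CLP plus landiolol differed from CLP by 0.24 (adjusted p = 0.494) and 0.12 (adjusted p = 0.874).

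Among male hearts Npr2 ran opposite to Nppb. Centred on group means, they correlated at r = -0.85 (permutation p = 0.00023, adjusted 0.00782) and rho = -0.81 (permutation p = 0.0007, adjusted 0.0238) over 16 hearts. This was the only one of the 34 relations to pass the adjustment by either measure. It was -0.72 and -0.95 within the male slides and -0.76 without the 2 hearts farthest from the median of Nppb. In females r was -0.22 and rho -0.27 (permutation p = 0.5 and 0.354, adjusted 0.739 and 0.524), and the difference between the sexes was not tested. The signal of the array moved with the male relation. On the 6 male arrays with a median processed intensity between 49.2 and 81.6, Npr2 lay between 11.48 and 11.88 and Nppb had a median of 15.34. On the other 10, at 101.3 to 158.4, Npr2 lay between 10.86 and 11.46 and Nppb had a median of 16.44. Split in this way after the values were seen, r was -0.87 and rho -0.83 within the 6 (permutation p = 0.168 and 0.251) and r was -0.57 and rho -0.48 within the 10 (permutation p = 0.176 and 0.219). Centred on group means, the log2 median intensity of the array correlated with Nppb at r = 0.68 and with Npr2 at r = -0.77. With this intensity regressed out of both genes, r over the 16 was -0.69. No p-value was computed for that r, and the part of array signal in the relation was not tested.

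Npr3, the gene of the clearance receptor, was detected on fewer arrays than the other receptor genes, and its 3 probes were well above background on 29, 24 and 23 of 32 arrays. The first lay at chr2:61276153-61276212 and the others, which have identical sequences, at chr2:61278264-61278323 (rn4, minus strand). With the first probe, male sham hearts gave 6.05, 6.8, 6.88, 6.92 and 5.71. Male CLP hearts gave 4.84, 6.13, 4.92, 3.28 and 6.1, of which the lowest was not well above background. Landiolol-treated males ran from 4.78 over 6.07 to 6.82. Of the 5 male CLP hearts, 3 thus lay below all sham hearts and 2 lay among them.

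In female sham hearts Npr3 was 5.47, 7.03, 6.62, 5.66 and 6.45, and in female CLP hearts 5.82, 4.15, 4.91, 6.21 and 4.93, with the lowest not well above background. Landiolol-treated females ran from 5.22 over 6.13 to 6.72. As in males, 3 of the 5 CLP hearts lay below every sham heart.

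Npr3 means were 6.47 ± 0.56 in sham, 5.05 ± 1.17 in CLP and 5.89 ± 0.91 in CLP plus landiolol males, and 6.24 ± 0.66, 5.2 ± 0.82 and 6.03 ± 0.5 in females (SD, n = 5, 5 and 6). CLP differed from sham by -1.42 in males (SE 0.53, interval -2.55 to -0.29, limma adjusted p = 0.0838) and by -1.04 in females (SE 0.39, interval -1.86 to -0.22, adjusted p = 0.107). Its other probes gave -1.51 and -1.25 in males (adjusted p = 0.0656 and 0.0554) and -1.01 and -0.87 in females (adjusted p = 0.138 and 0.234). Within slides the first probe gave -1.13 and -1.81 in males and -1 and -1.13 in females. Background correction by normexp with an offset of 50, which compresses weak signals by its construction, gave -0.59 and -0.45. CLP plus landiolol differed from CLP by 0.84 in males (adjusted p = 0.463) and 0.83 in females (adjusted p = 0.504), and from sham by -0.58 (adjusted p = 0.527) and -0.22 (adjusted p = 0.767). For CLP against sham and for CLP plus landiolol against CLP, all 3 probes had the same sign in both sexes and none passed the FDR. This agreement is not independent support, since the 2 other probes share 1 sequence. They were well above background on only 3 and 2 of 5 male CLP arrays, and on 2 and 2 of 5 female ones. In each sex 1 of them passed the filter through the sham group alone. Against sham the other probes of landiolol-treated hearts gave -0.21 and -0.69 in males and -0.35 and 0.2 in females, so 1 probe differed in sign there. Among endocardial markers, listed here because endocardium is a known site of Npr3, Emcn fell by 1.08 in males (limma adjusted p = 0.00397) and by 1.34 in females (adjusted p = 0.00165) after CLP. Tmem100, another marker of that list, rose by 1.16 (adjusted p = 0.00346) and 1.27 (adjusted p = 0.00108), and the mean of the 5 endocardial markers ranged from 8.99 to 9.71 in male sham and from 8.81 to 9.76 in male CLP hearts. Their part in the Npr3 values was not tested. In male sham and landiolol-treated hearts the first Npr3 probe moved with array signal. Male sham hearts read 6.05 and 5.71 on arrays of median processed intensity 77.14 and 74.84, and 6.8 to 6.92 at 123 to 158.4. Landiolol-treated males read 4.78 to 5.88 at 49.16 to 81.58 and 6.26 to 6.82 at 113.1 to 119.1. In CLP males the lowest value, 3.28, was at 101.3, and in female sham hearts the lowest, 5.47, was at 131.7. The part of array signal was not tested.

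Corin, the protease gene, was measured by probes at chr14:38340722-38340781 and chr14:38339574-38339633 (rn4, plus strand), both well above background on all 32 arrays. The first gave 14.26, 14.14, 13.52, 13.7 and 13.78 in male sham hearts and 14.84, 14.52, 14.57, 14.19 and 14.39 in male CLP hearts. Landiolol-treated males ran from 13.94 over 14.2 to 14.54. Only 1 male CLP heart lay below the highest sham heart. Female sham hearts gave 14.31, 13.77, 13.67, 14.46 and 13.75, female CLP hearts 13.94, 14.85, 14.97, 15.22 and 14.08, and landiolol-treated females ran from 13.45 over 14.03 to 14.41. Here 3 of the 5 CLP hearts lay above every sham and every landiolol-treated heart, and the other 2 lay among them.

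Means of Corin were 13.88 ± 0.31, 14.5 ± 0.24 and 14.18 ± 0.21 in sham, CLP and CLP plus landiolol males, and 13.99 ± 0.37, 14.61 ± 0.57 and 14.03 ± 0.35 in females (SD, n = 5, 5 and 6). CLP differed from sham by 0.62 in males, a 1.54-fold level (SE 0.16, interval 0.28 to 0.97, limma adjusted p = 0.0159), and the other probe gave 0.67 (SE 0.17, interval 0.31 to 1.03, adjusted p = 0.0127). Both male values missed the FDR of 1% and would pass 5%, where 2 of 10 member probes beside 16% of all probes passed. In females CLP differed from sham by 0.62 (SE 0.26, interval 0.06 to 1.18, adjusted p = 0.164), and by 0.46 with the other probe (adjusted p = 0.527). Without the male sham replicate 1, or with a trended prior, the first male probe passed 1% (adjusted p = 0.00753 and 0.00971). Within slides the first probe gave 0.44 and 0.62 in males and 1.12 and 0.21 in females.

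After landiolol the Corin signal differed from that of CLP hearts by -0.32 in males (limma adjusted p = 0.359) and -0.58 in females (adjusted p = 0.485). The other probe gave -0.57 in males (SE 0.16, adjusted p = 0.093) and -0.52 in females (adjusted p = 0.711). Against sham the landiolol-treated hearts differed by 0.3 in males (adjusted p = 0.248) and 0.04 in females (adjusted p = 0.948).

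**Figure D3:**
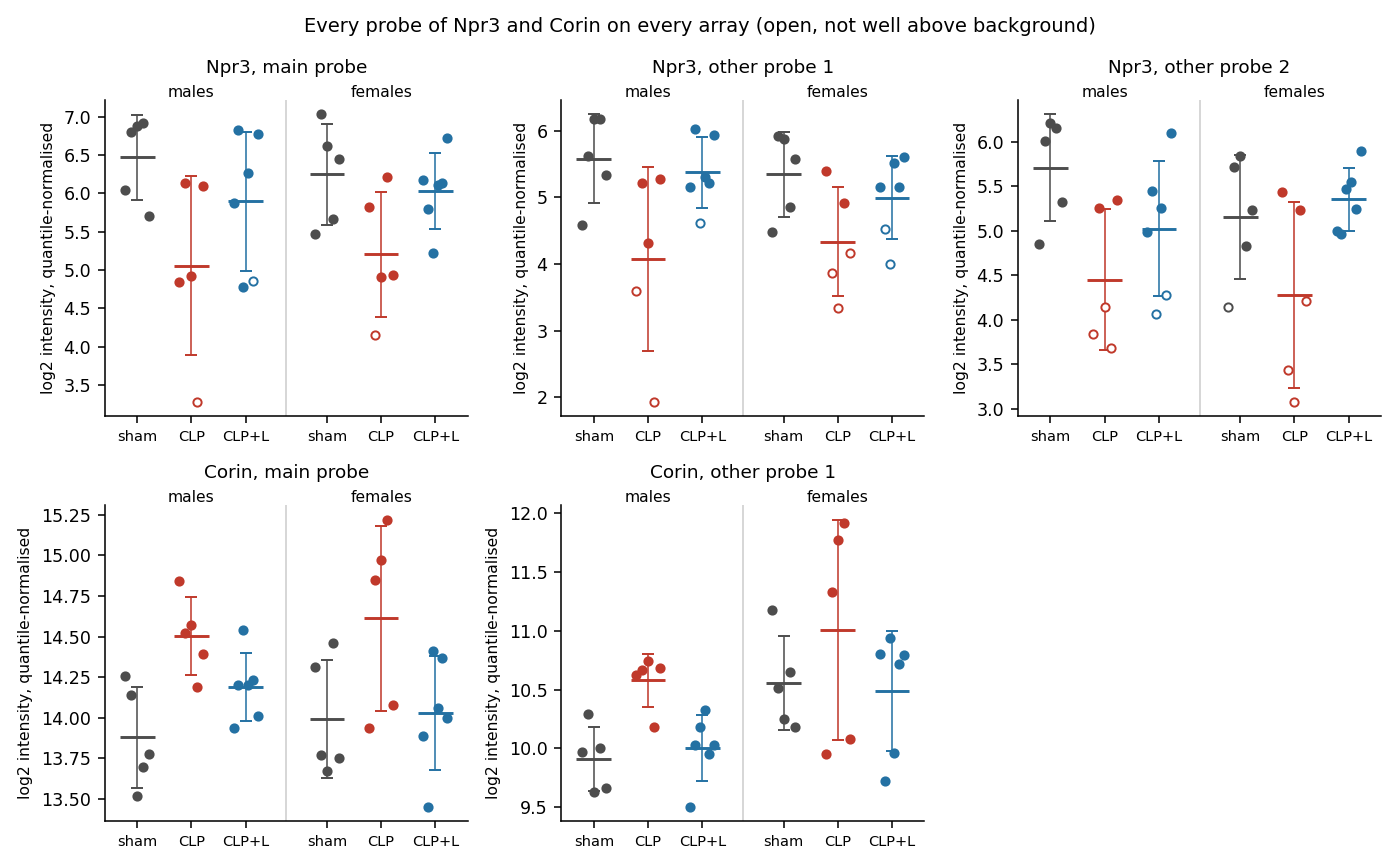
Log2 intensity of the 3 probes of Npr3 and the 2 probes of Corin on each array, by sex and group, with the mean as a bar, the SD as whiskers and open symbols for values not well above background. In each panel and sex the CLP mean is the lowest of the 3 groups for Npr3 and the highest for Corin, and the points of the groups overlap.

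**Figure D4:**
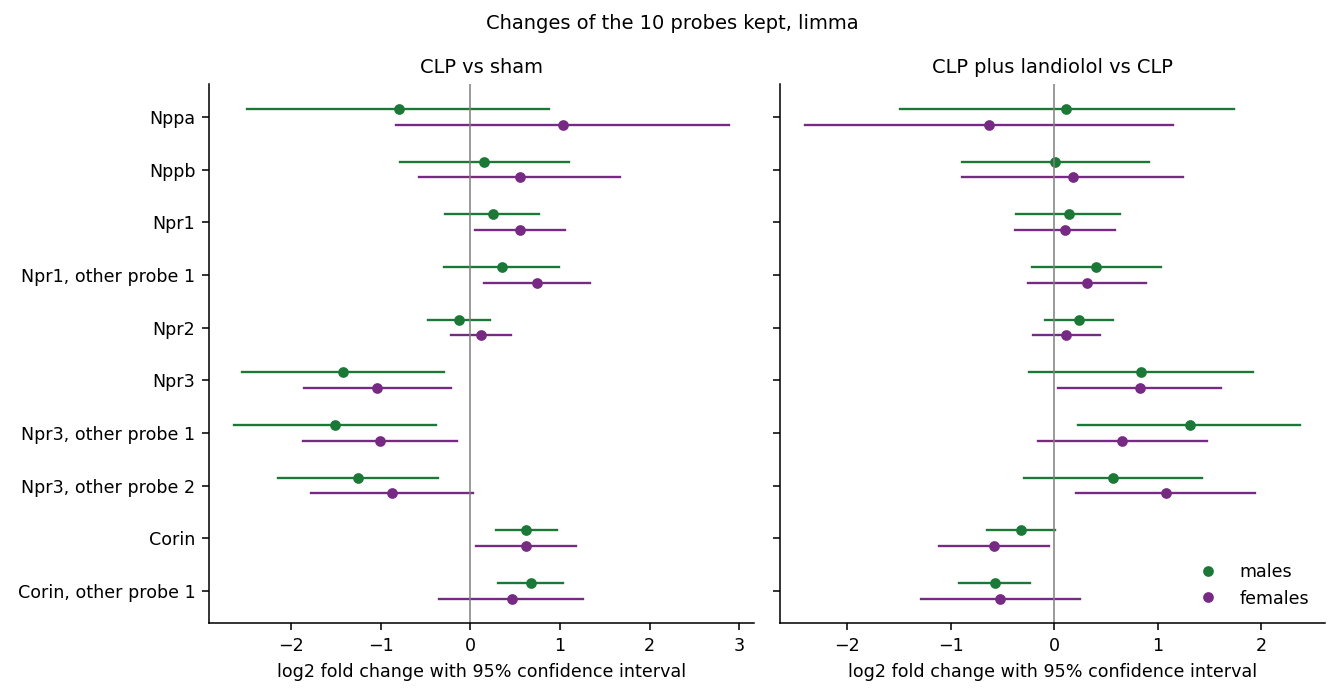
Log2 fold changes of the 10 member probes tested, with 95% confidence intervals from limma, in males and females, for CLP against sham and for CLP plus landiolol against CLP. Intervals of Nppa span more than 3 on the log2 scale, and those of Npr2 and Corin in males less than 1.

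The question of whether males and females responded differently was put to each member as the male minus the female difference, with all 32 arrays normalised together. For CLP against sham, 0 of 10 member probes passed an FDR of 5% in limma and 0% of all 24768 probes did, with 867 probes (3.5%) at an unadjusted p under 0.05. For CLP plus landiolol against CLP, 0 of 10 member probes and 0% of all probes passed, with 1217 (4.91%) at an unadjusted p under 0.05. Nppa had the largest value, -1.84 for CLP against sham (SE 1.23, interval -4.36 to 0.68, adjusted p = 1). The values of the other members for CLP against sham were -0.39 for Nppb, -0.31 for Npr1, -0.24 for Npr2, -0.4 for Npr3 and 0.03 for Corin. For CLP plus landiolol against CLP they were 0.76 for Nppa, -0.16 for Nppb, 0.03 for Npr1, 0.12 for Npr2, 0.03 for Npr3 and 0.24 for Corin. All these intervals included 0, and that of Nppa was the widest.

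Downstream and around the receptors, a list of 20 genes of cGMP signalling and peptide breakdown was followed. In males 17 of them and in females 16 were measured, and after CLP 0 rose and 1 fell in males while 1 rose and 0 fell in females. Over all probes 7.81% passed in males and 3.63% in females, in either direction. Their median log2 fold change was -0.2 in males and -0.12 in females. Pde1a (chr3:62652240-62652299, rn4), a phosphodiesterase that breaks down cGMP, fell by 1.46 in males (SE 0.27, limma adjusted p = 0.00188), from a mean of 5.78 in sham to 4.32 in CLP, where it was well above background on 2 of 5 arrays. In females its value was -1.28 (adjusted p = 0.0531). With normexp the male value was -0.48 (adjusted p = 0.00375). Prkg1 (chr1:234423423-234423482, rn4), the cGMP-dependent protein kinase, rose by 1.14 in females (SE 0.25, adjusted p = 0.00888), from 4.49 to 5.63, and was well above background on 2 of 5 sham arrays and 5 of 5 CLP arrays. This call was lost with the authors' own normalised table, where the value was 0.35 (adjusted p = 0.395). In males Prkg1 was 0.27 (adjusted p = 0.373).

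The soluble guanylate cyclase genes, which make cGMP in response to nitric oxide, all had negative values after CLP without passing. Gucy1a1 gave -0.27 in males and -0.53 in females, Gucy1a2 -0.64 and -0.5, and Gucy1b1 -0.61 and -0.67. Mme, the gene of neprilysin, which degrades natriuretic peptides, gave 0.81 in males (limma adjusted p = 0.0231) and 0.69 in females (adjusted p = 0.117). After landiolol, 0 of the measured genes of this list passed against CLP in limma in either sex, and their medians were 0.17 and 0.21. Of all probes 1.56% passed there in males and 0.0945% in females.

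Transcription factors that act on the natriuretic peptide genes formed a list of 11, all measured. After CLP 2 fell in males and 1 in females, 0 rose, and the medians were -0.31 and -0.12. Beside them 7.81% of all probes passed in males and 3.63% in females. Myocd (chr10:51496641-51496700, rn4) codes for myocardin, a partner of serum response factor in heart and smooth muscle. It fell by 2.13 in males (SE 0.25, limma adjusted p = 5.39e-05), from 9.01 ± 0.23 to 6.88 ± 0.56, and fell by 2.02 in females (SE 0.24, adjusted p = 0.000139), from 9.7 ± 0.36 to 7.67 ± 0.46. In CLP plus landiolol hearts it was lower than in sham, with log2 fold changes of -1.16 in males (adjusted p = 0.00567) and -1.66 in females (adjusted p = 0.000327). The female call was lost with row as a term (-1.46, adjusted p = 0.202). The male call was lost without the filter (adjusted p = 0.012) and without sham replicate 2, 4 or 5 or CLP plus landiolol replicate 1, 3, 4 or 5 (adjusted p up to 0.0189, without sham replicate 4). Against CLP, landiolol-treated males had a Myocd value of 0.97 (limma adjusted p = 0.0546), just short of 5%. The other Myocd probe gave 0.95 there (adjusted p = 0.0591), and females gave 0.36 (adjusted p = 0.669). Mef2a, a factor of muscle gene transcription, fell by 0.68 in males (SE 0.12, adjusted p = 0.00113), and its other probe gave -0.33 (adjusted p = 0.112). By significance analysis of microarrays (SAM), the test used in the study, its first probe just missed 1% (adjusted p = 0.0101). Its first probe gave -0.12 in females (adjusted p = 0.739). The GATA factor gene Gata4 gave -0.68 in males (adjusted p = 0.289) and -0.41 in females (adjusted p = 0.53). In limma 0 of the 11 passed for CLP plus landiolol against CLP in either sex, beside 1.56% of all probes in males and 0.0945% in females.

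Genes that answer to load together with Nppa and Nppb formed a list of 10, all measured. After CLP 1 rose in each sex and 0 fell, with medians of 0.09 in males and 0.3 in females. Passing shares over all probes were 7.81% in males and 3.63% in females. The gene that rose was Ace (chr10:95381347-95381406, rn4), which codes for angiotensin-converting enzyme. It rose by 1.87 in males (SE 0.26, limma adjusted p = 0.00019), from 9.46 ± 0.56 to 11.33 ± 0.42, and by 2.36 in females (SE 0.23, adjusted p = 3.12e-05), from 8.67 ± 0.46 to 11.03 ± 0.29. The classic load markers of the sarcomere gave small or uncertain values. Myh7, the slow myosin heavy chain, was 0.08 in males and 0.13 in females, Acta1 was -0.78 and -0.88, and Ankrd1 was 0.75 and 0.44, none of which passed. Under landiolol Ccn2 (chr1:21327574-21327633, rn4), a matrix-associated growth factor gene, rose by 1.38 against CLP in males (SE 0.31, adjusted p = 0.0368), from 10.3 ± 0.51 to 11.68 ± 0.67. In females it was 1.42 (adjusted p = 0.21). The male call was lost in several other settings, for example with the CLP and CLP plus landiolol arrays alone (adjusted p = 0.0863). Fibroblast markers differed between these hearts as well: after CLP in males 3 of 6 fell and 1 rose in limma, beside 7.81% of all probes that passed. Col1a1 fell by 2.11 (adjusted p = 0.00154), whereas Tcf21 rose by 1.25 (adjusted p = 0.00451). The mean of the 6 fibroblast markers ranged from 11.52 to 12.24 in sham, 10.93 to 11.68 in CLP and 11.04 to 11.99 in CLP plus landiolol hearts. Their part in the Ccn2 value was not tested.

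**Figure D5:**
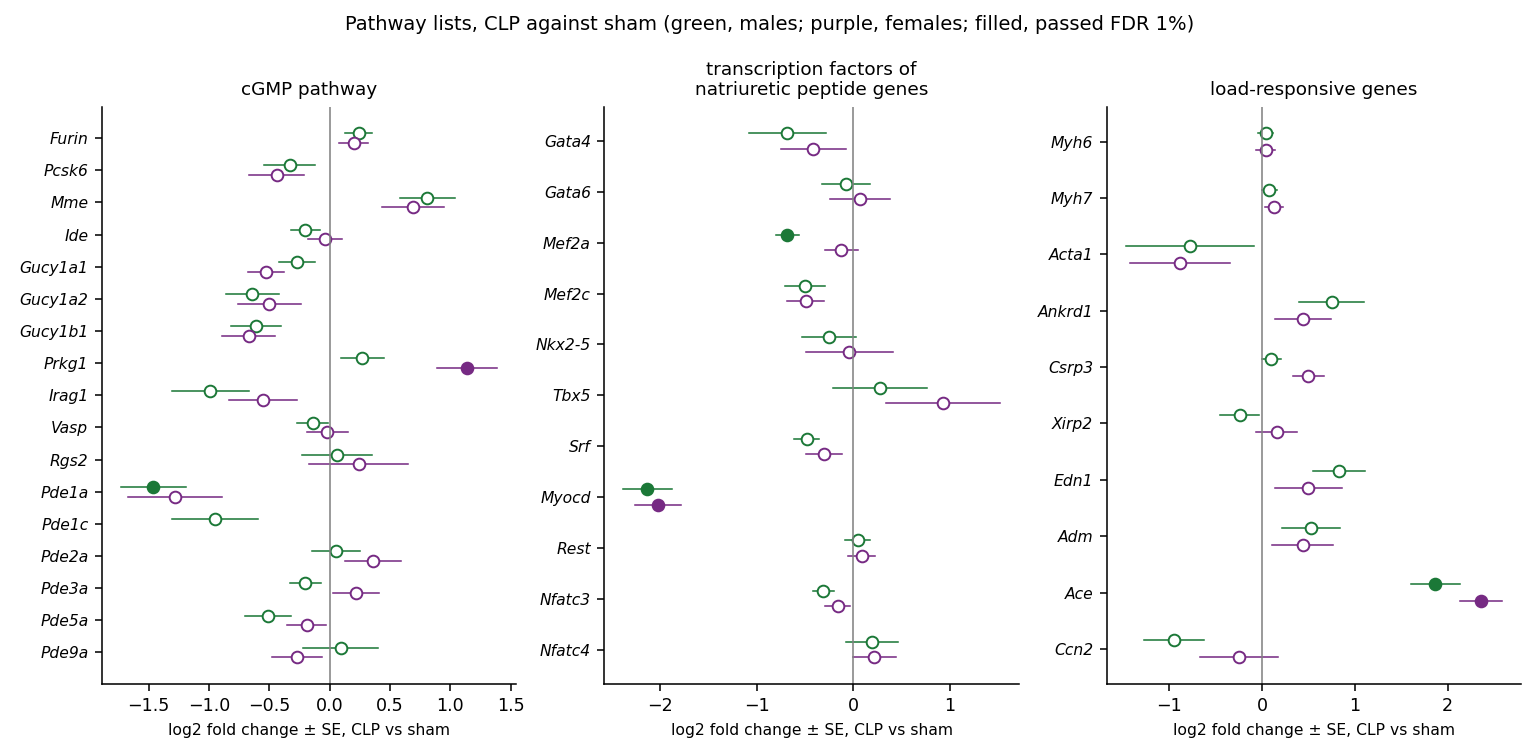
Log2 fold change with SE of the measured genes of the cGMP, transcription factor and load lists for CLP against sham, in males (green) and females (purple), with filled points for genes that passed an FDR of 1%. Myocd lies near -2 and Ace near 2 in both sexes, whereas most other genes lie within 1 of 0.

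The genes most like each member were found by Pearson r over all 32 arrays, each value centred on the mean of its sex, among 15874 genes with 1 probe each. These r values are descriptions of shared variation between hearts and carry no p-value, since the arrays share treatment, slide and array signal. Nppa was most like Fuca2 (r = 0.7), Irx5 (0.69) and Nppb (0.65), with the 3 low male hearts included. Nppb was most like Fos (0.78), an immediate early gene, followed by Haus1 (0.69) and Rcan1 (0.68), a calcineurin target. The best matches of Npr1 were closer, with Ppp1r13b (0.93), Arrdc1 (0.91) and Ap5z1 (0.9). Npr2 was most like Ist1 (0.81), Serpina3n (0.81) and Pck2 (0.8). For Npr3 they were LOC691995 (0.79), Gstt3 (0.77) and Ctbs (0.76), and for Corin they were Dlgap1 (0.86), LOC103690397 (0.82) and Defb4 (0.8). After each value was centred on its group instead, r was 0.72 for Nppa with Fuca2, 0.77 for Nppb with Fos, 0.9 for Npr1 with Ppp1r13b, 0.81 for Npr2 with Ist1, 0.67 for Npr3 with LOC691995 and 0.78 for Corin with Dlgap1.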

How the data were processed

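Total RNA of rat left ventricle was hybridised to 1-colour Agilent arrays (62976 spots, 32 arrays on 4 slides). The deposited scanner files hold the intensity of each spot, extracted by the authors with Agilent Feature Extraction 10.5 per the submitters' processing notes. Per the file headers, the 8 arrays of 1 female slide carried another version of the extraction protocol than all others. A second deposited file holds log2 values that the authors had quantile-normalised; its 38875 spots were all matched, and it served as an alternative.

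From the processed (background-corrected) intensity, outlier spots were dropped, log2 was taken, spots of a probe were averaged and arrays were quantile-normalised within each sex. The filter kept a probe if 80% or more of the arrays in any 1 group read it well above background, which left 25864 in males, 25394 in females and 24768 in both. The 3 groups of a sex were fitted together with limma 3.58.1 (R 4.3.3), in place of the study's significance analysis of microarrays (SAM), with Benjamini-Hochberg adjustment over all probes kept. Calls used, as in the study, an FDR of 1% for CLP against sham and 5% for CLP plus landiolol against CLP. Chosen here were 1% for CLP plus landiolol against sham and 5% for the interaction with sex. Comparisons with a common group share its arrays. The fits were tested on simulated data. Correlations were permuted with numpy 2.4.6.

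Named were all members by their brightest probe, list genes that passed in CLP against sham or CLP plus landiolol against CLP, and the 3 genes most like each member. Members and lists were chosen with earlier results of these data known. Alternatives covered scaling, background, filter, groups fitted, slide, row, prior, SAM, the authors' table, the FDR, other probes and leaving out each array. The probe positions are those of the array annotation (rn4), and promoters came from RefSeq (GRCr8). All 7 symbols matched RefSeq. The number of arrays limits the precision, and no protein sequence was used here.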

Additional observations from a re-analysis of the deposited data

Results flagged for a closer look

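Nppa in male CLP replicate 1 was 8.35, far below the other 4 hearts of its group, which averaged 12.63 ± 0.31 with the nearest at 12.28. The array of this heart had a median processed intensity of 80.1, and the other 4 had 101.3 to 118. Nppb in female CLP replicate 3 was 16.98, above the other 4 hearts of its group at 16 ± 0.1, the nearest at 16.1. Both stood out as the most distant value of their group by Dixon's test. Of 36 groups of values tested, 2 held such a value, and chance alone gives about 1 in 20.

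Nppc, which entered no comparison, was well above background in 1 of 32 hearts, female CLP plus landiolol replicate 1, at 5.41. The other 5 hearts of that group lay between 2.13 and 3.02.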

How the results depend on the processing

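The 6 measured members were refitted under 12 other settings and without each array in turn. Most values kept their direction and their side of the FDR: 467 of 480 under other settings and at the other probes of Npr1, Npr3 and Corin, and 909 of 960 without 1 array. The first count is partly fixed by construction. A changed filter, set of groups, prior or FDR, or SAM, leaves the fold change itself as it was. Under those settings only the call could move. For CLP against sham in males, where 0 member probes passed, 1 passed with normexp (the other Corin probe, adjusted p = 0.00842), 1 with a trended prior (Corin, 0.00971) and 2 at an FDR of 5% (both Corin probes). Leaving out 1 array gave 0 to 1. That 1 was a Corin probe without male sham replicate 1 (adjusted p = 0.00753), male sham replicate 2 (0.00794), male CLP replicate 4 (0.00801) or male CLP plus landiolol replicate 1 (0.00692). For CLP plus landiolol against sham in females, 1 passed at an FDR of 5%, and leaving out 1 array gave 0 to 1, the other Npr1 probe without female sham replicate 3 (0.00685) or female CLP replicate 5 (0.00804). Corin for CLP against sham in males ranged from 0.52 to 0.67 (adjusted p = 0.00971 to 0.0479) and Npr3 from -1.54 to -0.59 (0.0434 to 0.148). Some small values changed sign. Nppb for CLP plus landiolol against CLP in males was -0.03 with 75th percentile scaling and -0.03 with slide as a term. Corin for CLP plus landiolol against sham in females was -0.02 with 75th percentile scaling, -0.03 with row as a term -0.06 in the authors' table and -0.06 at its other probe, and Npr3 there was 0.2 at 1 other probe. With row as a term in females, Npr2 was -0.04 for CLP against sham, -0.11 for CLP plus landiolol against CLP and -0.14 for CLP plus landiolol against sham, and Npr1 was -0.17 for CLP plus landiolol against CLP. Without 1 array in turn, males gave -1.1 to 0.05 for Nppa and -0.1 to 0.38 for Nppb (CLP against sham), -0.73 to 0.48 and -0.22 to 0.27 (CLP plus landiolol against CLP) and -0.09 to 0.42 for Nppb (CLP plus landiolol against sham). In females Nppa gave -0.25 to 1.21 and Corin -0.04 to 0.16 for CLP plus landiolol against sham. The difference between the sexes for CLP against sham ran from -0.69 to 0.1 for Nppb, -0.67 to 0.06 for Npr3 and -0.13 to 0.18 for Corin. That for CLP plus landiolol against CLP ran from -0.09 to 1.11 for Nppa, -0.39 to 0.09 for Nppb, -0.16 to 0.21 for Npr1 and -0.42 to 0.3 for Npr3. Where no construction of the setting shows it, the cause was not tested.

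Counts over all probes moved more. In males CLP against sham gave 2020 probes, 989 by SAM with 100 permutations and 4133 at an FDR of 5%, with 1305 to 2363 when 1 array was left out. CLP plus landiolol against CLP in males gave 403, with 121 without male CLP replicate 4 and 1053 without male CLP replicate 1. In females CLP against sham gave 923, 184 by SAM and 592 to 980 without 1 array, CLP plus landiolol against CLP gave 24, 0 without female CLP replicate 3 and 132 without female CLP replicate 5, and CLP plus landiolol against sham gave 1332, and 20 with row as a term. For the named list genes, 20 of 155 values under other settings and 36 of 208 without 1 array lost their call, mainly Prkg1 in females, Ccn2 in males and Myocd for CLP plus landiolol against sham in males. The r of Nppa and Nppb in females was 0.7 to 0.73 under 4 other normalisations, chosen after seeing the data. No paired analysis was possible because the labels give no replicate numbers that tie hearts across groups. The number of arrays and, for Npr3, Pde1a and Prkg1, a signal near background limit these comparisons.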
